A study of Homo sapiens with 4 samples.

Results

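The genes described here are MCM2, MCM3, MCM4, MCM5, MCM6 and MCM7, the subunits of the replicative helicase, with the genes of its loaders CDC6 and CDT1 and of its activators CDC45 and MCM10. They were taken by name, with earlier results of these data known. All 10 have a row among the 20263 human gene IDs of the deposited count table. All 10 also passed the filter on low counts, which left 13612 genes. RNA came from MDA-MB-231, an established human cell line from a triple-negative breast cancer, grown in DMEM with fetal bovine serum and antibiotics. Cells of one group received RB-1, named as a ribociclib derivative in the title of the series, for 24 h at a dose that the labels do not give. Those of the other group received DMSO, the solvent, for the same time. Each group had 2 libraries. The series asks how RB-1 acts on these cells, and ribociclib itself inhibits the cyclin-dependent kinases CDK4 and CDK6.

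Before S phase, the origin recognition complex marks the sites where DNA copying can start, and CDC6 and CDT1 load rings of MCM2 to MCM7 onto the DNA there. At the start of S phase the kinases CDC7-DBF4 and CDK2 recruit CDC45 and the GINS complex to the ring, which makes the working helicase, and MCM10 helps it to open the origin. Transcription of these genes depends on E2F factors, which the retinoblastoma protein holds back until CDK4 and CDK6 phosphorylate it. MCM proteins serve as markers of proliferating cells in tumours.

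Promoter sequences are shown for the 3 genes that fell after RB-1 (MCM10, CDC6 and MCM6) and for 3 subunit genes that did not pass the test (MCM2, MCM3 and MCM7), because genes of the helicase are known E2F targets and the letters of an E2F site can be compared between them. The stretches come from RefSeq windows on build GRCh38.p14, read 5′ to 3′ on the gene's strand, and positions are counted from the annotated start. Capitals mark an E2F-like motif (TTTCCCGC, TTTGGCGC, TTTCGCGC or TTTGCCGC) or the motif CCAAT, each searched on both strands. The stretches are parts of the windows, and only motifs lying wholly within a stretch are marked. In MCM7 a CCAAT from position -2 runs past the end of the stretch and is not marked.
MCM10, chr10:13161428-13161557, plus strand, ending just before the start: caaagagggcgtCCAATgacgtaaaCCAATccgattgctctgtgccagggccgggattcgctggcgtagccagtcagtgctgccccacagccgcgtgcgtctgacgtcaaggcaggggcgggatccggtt
CDC6, chr17:40287819-40287893, plus strand, ending 15 bases into the transcript: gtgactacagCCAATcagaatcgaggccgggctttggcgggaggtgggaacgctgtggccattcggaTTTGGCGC
MCM6, chr2:135876494-135876603, minus strand, ending 51 bases before the start: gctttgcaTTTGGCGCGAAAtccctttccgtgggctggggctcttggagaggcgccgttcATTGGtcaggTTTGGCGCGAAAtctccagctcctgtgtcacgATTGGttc
MCM2, chr3:127598361-127598425, plus strand, ending 15 bases into the transcript: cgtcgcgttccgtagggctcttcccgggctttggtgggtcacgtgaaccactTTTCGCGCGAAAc
MCM3, chr6:52284738-52284872, minus strand, ending 5 bases into the transcript: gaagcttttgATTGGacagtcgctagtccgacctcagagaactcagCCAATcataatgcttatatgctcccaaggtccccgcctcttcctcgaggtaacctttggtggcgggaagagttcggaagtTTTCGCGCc
MCM7, chr7:100101398-100101507, minus strand, ending just before the start: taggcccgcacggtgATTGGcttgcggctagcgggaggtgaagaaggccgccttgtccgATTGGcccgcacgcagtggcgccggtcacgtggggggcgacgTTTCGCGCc

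The E2F-like letters were present in 6 of the 8 described genes with a window in that table, against 3.99% of all 27305 genes with one. Those 27305 include genes that were not tested here, so they are an unlike set to the 8, which were all tested. Those 6 were MCM2, MCM3, MCM6, MCM7, CDC6 and CDT1, while the windows of MCM10 and CDC45 held none of the 4 motifs. The last 30 bases of the MCM10 window are in none of its GENCODE release 29 transcripts. For the other 7 genes those of a window are in a transcript. MCM7 and CDC45 have several windows, which were not checked singly. The start of MCM10 was thus not matched between the sources, and its absence of motifs holds for the RefSeq window alone. MCM4 and MCM5 were not matched. In MCM6 the 12 bases of TTTGGCGCGAAA occur in 2 copies and in MCM2 the palindrome TTTCGCGCGAAA occurs once, so that 2 motifs overlap on opposite strands at each place. CCAAT was present in 6 of the 8 genes, against 39.7% of all genes, and TTTGAA, the core of the cell cycle element CHR, in 0 of 8, against 18.2%. Both genes that fell and genes that did not pass carried the E2F-like letters. Among tested genes with a window, 20.8% of the 708 with these letters and 15.8% of the 10164 without them were called lower in RB-1. Called higher were 9.04% and 12.6%, and the median log2 fold changes were -0.10 and 0.02. The 708 include the 6 described genes with the letters. A match is a description of the letters in these windows and shows no binding.

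Library totals ran from 34122874 to 36081265 counts in RB-1 and from 34774542 to 37754168 in DMSO. DMSO replicate 2 stood apart in its mitochondrial transcripts, which took 21.7% of its counts, against 4.25% and 6.46% in the RB-1 libraries and 8.68% in DMSO replicate 1. The 6 markers of the line fixed for this check (VIM, CD44, EGFR, AXL, CAV1 and KRT18) lay between 165 and 5423 CPM, which are counts scaled to the TMM library size, in every library. ESR1, PGR and CDH1 reached at most 1.77 CPM, the leukocyte genes PTPRC and CD3E at most 0.631 CPM, and the endothelial gene PECAM1 at most 1.18 CPM. Nothing in the labels tells whether replicate libraries stem from different cultures, and the p-values therefore cover only the spread among these 4 samples, which may be technical. In bulk RNA, fewer cells in S phase and less transcript per cell cannot be told apart.

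After RB-1, MCM10, CDC6 and MCM6 fell, and the other 7 genes did not pass the test (edgeR's quasi-likelihood F test, two-sided, Benjamini-Hochberg adjusted p under 0.05 over all 13612 genes). Those 3 of 10 stand against 15.8% of all tested genes called lower, and none of the 10 was called higher, against 12.5% of all tested genes. The median log2 fold change over the 10 genes was -0.38, against 0.01 over all tested genes, with 8 of the 10 below 0. The groups did not overlap in 6 of the 10, against 69.7% of all tested genes. MCM10 was called in every fit with 1 library left out, while CDC6 and MCM6 were not called in all of them. Their log2 fold changes in those fits ran from -2.61 to -1.88, from -1.34 to -1.18 and from -1.15 to -0.86. Without RB-1 replicate 1, DMSO replicate 1 or DMSO replicate 2, fewer genes were called lower over all tested genes as well.

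**Figure D1:**
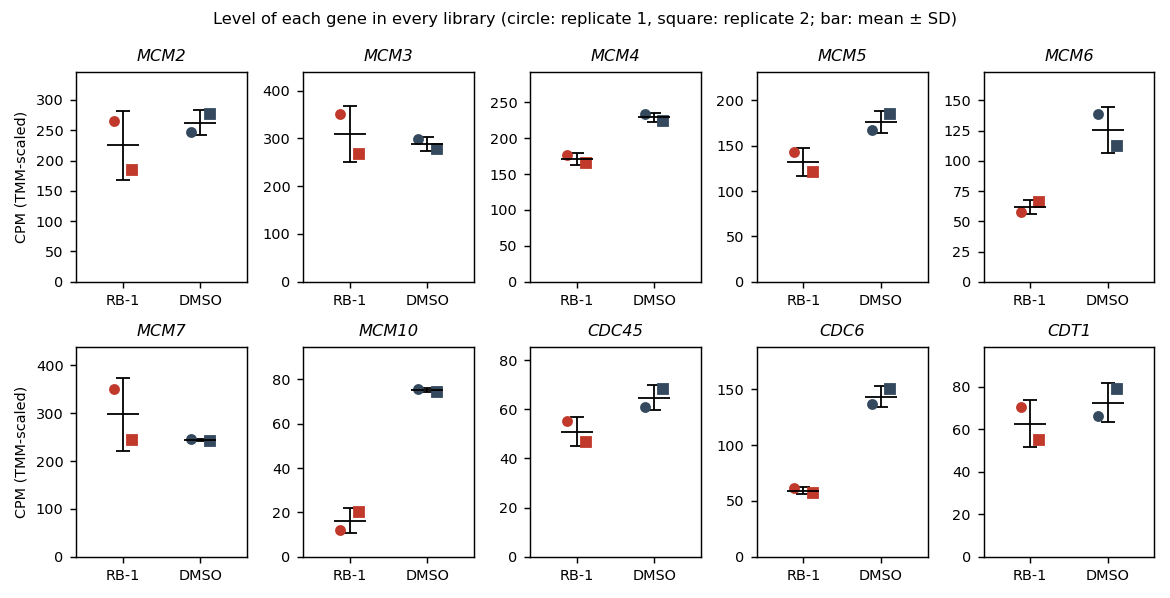
Level of each of the 10 genes in CPM (vertical axes, from 0) in the RB-1 libraries and the DMSO libraries; circles are replicate 1, squares replicate 2, and bars the mean ± SD (n = 2 each). MCM6, MCM10 and CDC6 show the widest gaps, with RB-1 means of 61.8, 16.3 and 59.3 CPM against DMSO means of 126, 75.0 and 144 CPM, while the groups overlap for MCM2, MCM3, MCM7 and CDT1.

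Of the activators, MCM10, a cofactor that helps the loaded helicase to start, gave the largest change of the 10. It had 12.2 and 20.3 CPM in RB-1 replicates 1 and 2, against 75.7 and 74.4 CPM in DMSO replicates 1 and 2. Both RB-1 libraries lay far below both DMSO libraries, and they differed from each other more than the DMSO libraries did. The log2 fold change was -2.20 ± 0.32 (SE), a 4.61-fold lower level (adjusted p = 0.00126). The value stayed between -2.61 and -1.88 when any 1 library was left out, and every such fit kept the call (adjusted p from 0.00441 to 0.00969).

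CDC45, which joins the ring at origin firing, had 55.1 and 46.6 CPM in RB-1, against 61.0 and 68.3 CPM in DMSO. The groups did not overlap, but the nearest libraries of the groups were closer to each other than those within a group. The log2 fold change of -0.35 ± 0.26 did not pass (adjusted p = 0.347). With offsets for transcript length and GC content, described with the GC values further on, it was -0.60 ± 0.19 and passed (adjusted p = 0.0411).

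Of the loaders, CDC6 fell and CDT1 did not pass, and the difference between their changes was not tested. CDC6, an ATPase that recruits the rings to the origin recognition complex, had 61.5 and 57.2 CPM in RB-1, against 137 and 151 CPM in DMSO. The RB-1 libraries were close together and both below the DMSO libraries. Its log2 fold change was -1.28 ± 0.24, which is 2.42-fold lower (adjusted p = 0.00427). CDT1, the partner of CDC6 that is degraded once S phase begins, had 70.5 and 55.0 CPM in RB-1, against 66.1 and 79.1 CPM in DMSO. These values overlap, and the log2 fold change of -0.21 ± 0.27 did not pass (adjusted p = 0.582). Without DMSO replicate 2 the call on CDC6 was lost by a narrow margin (log2 fold change -1.18, adjusted p = 0.0508). With the offsets for length and GC content the values lay nearer each other, at -0.95 ± 0.20 for CDC6 and -0.38 ± 0.19 for CDT1.

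Among the 6 ring subunits MCM6 fell. It had 57.5 and 66.1 CPM in RB-1, against 139 and 112 CPM in DMSO, with no overlap between the groups. The log2 fold change was -1.02 ± 0.25, a 2.03-fold lower level (adjusted p = 0.0135). This call was less firm than that of MCM10. It did not hold without RB-1 replicate 1 (-0.92, adjusted p = 0.0619), without DMSO replicate 1 (-0.86, adjusted p = 0.122), without DMSO replicate 2 (-1.15, adjusted p = 0.0568) or with library totals alone (-0.84, adjusted p = 0.0554).

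MCM4 and MCM5 had smaller and more even differences. MCM4 had 177 and 165 CPM in RB-1, against 234 and 224 CPM in DMSO. MCM5 had 142 and 121 CPM in RB-1, against 167 and 185 CPM in DMSO. In both genes the groups did not overlap, and the log2 fold changes of -0.42 ± 0.22 for MCM4 (adjusted p = 0.176) and -0.42 ± 0.23 for MCM5 (adjusted p = 0.194) did not pass.

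MCM2, MCM3 and MCM7 had overlapping groups, with RB-1 replicate 1 above RB-1 replicate 2 in each. MCM2 had 265 and 185 CPM in RB-1, against 248 and 277 CPM in DMSO (log2 fold change -0.22 ± 0.25, adjusted p = 0.530). MCM3 had 351 and 268 CPM in RB-1, against 298 and 278 CPM in DMSO (0.10 ± 0.23, adjusted p = 0.772). MCM7 had 351 and 244 CPM in RB-1, against 246 and 242 CPM in DMSO (0.29 ± 0.24, adjusted p = 0.405). RB-1 replicate 1 alone of the RB-1 libraries lay well above the DMSO level of MCM7, and without it the log2 fold change was 0.01. MCM2 was at -0.50 without RB-1 replicate 1 and 0.02 without RB-1 replicate 2, and MCM3 at -0.10 and 0.29. MCM2 is uncertain, since 22.7% of its exon bases in GENCODE release 29 lie opposite an antisense gene that has no row in the table, and whether counting used strand is not known here. MCM7 shares 8.94% of its exon bases with AP4M1 on the opposite strand.

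**Figure D2:**
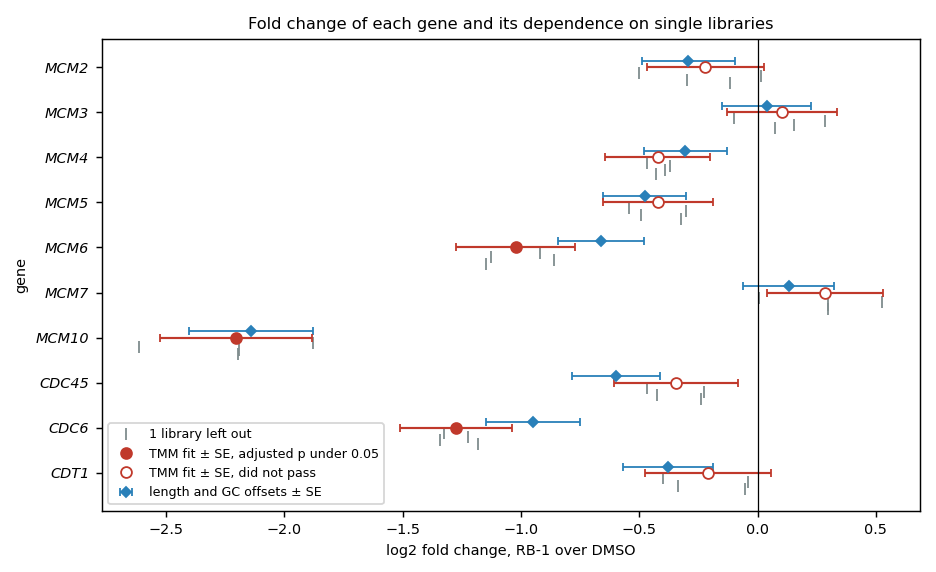
Log2 fold change of RB-1 over DMSO (horizontal axis) for each gene; circles are the fit with TMM scaling ± SE, filled where the adjusted p is under 0.05, diamonds the fit with offsets for transcript length and GC content ± SE, and ticks the fits with 1 library left out. MCM10 stays between -2.61 and -1.88 throughout, MCM6 moves to -0.66 with the offsets, and the ticks of MCM2 and MCM3 fall on both sides of 0.

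Levels can be compared between genes only per transcript length, as CPM per kilobase of the annotated principal transcript. In RB-1 the order was MCM7 (101 ± 25.5; SD, n = 2), MCM3 (96.5 ± 18.4), MCM2 (62.1 ± 15.6), MCM4 (40.9 ± 2.05), MCM5 (37.2 ± 4.38), CDC45 (24.3 ± 2.87), CDT1 (19.4 ± 3.39), MCM6 (16.5 ± 1.62), CDC6 (12.3 ± 0.637) and MCM10 (5.15 ± 1.80). In DMSO it was MCM3 (89.9 ± 4.42; SD, n = 2), MCM7 (82.5 ± 1.01), MCM2 (72.4 ± 5.68), MCM4 (54.8 ± 1.58), MCM5 (49.8 ± 3.56), MCM6 (33.6 ± 5.03), CDC45 (30.9 ± 2.46), CDC6 (29.9 ± 2.02), MCM10 (23.8 ± 0.290) and CDT1 (22.4 ± 2.83). MCM6 thus stood below CDC45 and CDT1 in RB-1, where its libraries overlapped those of CDT1, and above both in DMSO, where they overlapped those of CDC45. Neighbours whose libraries also overlapped were MCM7 and MCM3, and MCM4 and MCM5, in RB-1, and CDC45 and CDC6, and MCM10 and CDT1, in DMSO.

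The protein ring holds its subunits in equal numbers, so the share of each transcript in the sum of the 6 was described next, per kilobase. MCM6 made up 3.86% and 5.74% of the sum in RB-1, against 9.66% and 7.89% in DMSO, and was the least abundant of the 6 in every library. MCM7 made up 29.7% and 26.8% in RB-1, against 21.6% and 21.5% in DMSO. MCM3 had 27.4% and 27.1% in RB-1, against 24.2% and 22.8% in DMSO. The shares of MCM4 and MCM5 were lower in both RB-1 libraries than in both DMSO libraries, and those of MCM2 overlapped. The ratio of MCM7 to MCM6 per kilobase, a pair picked after its values were seen, was 7.71 and 4.67 in RB-1, against 2.24 and 2.72 in DMSO. No test was made of these shares. They and the ratio are not adjusted for GC content, which was 58.1% in MCM7 and 43.1% in MCM6. With the offsets for length and GC content the log2 fold changes lay nearer each other, at 0.13 for MCM7 and -0.66 for MCM6, against 0.29 and -1.02 without them.

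The total over the 6 subunits was 1344 and 1048 CPM in RB-1, against 1332 and 1319 CPM in DMSO, with a mean of 1196 ± 209 in RB-1 and 1325 ± 9.38 in DMSO (SD, n = 2 each). One RB-1 library lay above and the other below both DMSO libraries. The direction of the means also turned with scaling: with library totals alone they were 1278 CPM in RB-1 and 1241 CPM in DMSO.

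**Figure D3:**
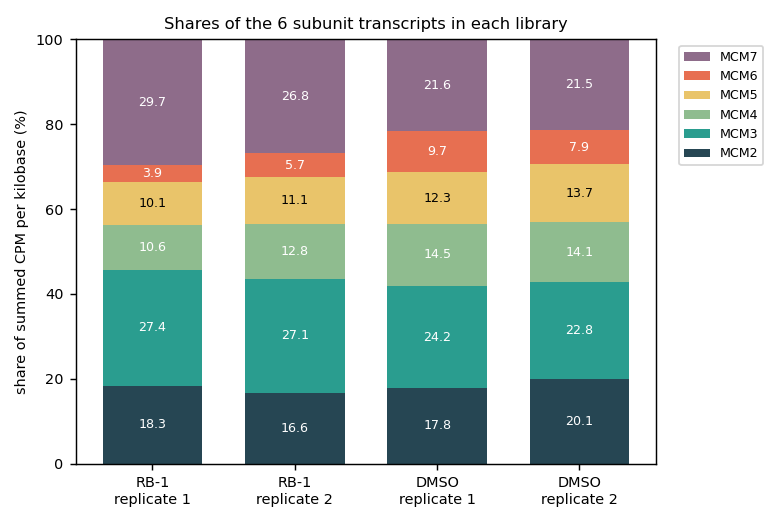
Share of each ring subunit's transcript in the summed CPM per kilobase of the 6 (vertical axis, in percent) for the RB-1 libraries, left, and the DMSO libraries, right. The MCM6 share is 3.86% and 5.74% in RB-1 against 9.66% and 7.89% in DMSO, and the MCM7 share 29.7% and 26.8% against 21.6% and 21.5%. Shares are not adjusted for GC content.

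Genes around the helicase, listed with earlier results of these data known, fell in part as well. Of 37 listed genes of origin recognition, loading control, firing, fork protection and unloading, all tested, 12 were called lower, none higher and 25 did not pass, beside 15.8% lower and 12.5% higher over all tested genes. Their median log2 fold change was -0.53. The counts given below for each smaller list also stand beside the shares of 15.8% lower and 12.5% higher over all tested genes. With library totals alone 9 were lower, beside 1381 of all 13612 tested genes. Those lost were CDC7 (-0.92, adjusted p = 0.0766), TICRR (-0.83, adjusted p = 0.0784) and CUL2 (-0.75, adjusted p = 0.133). CUL2 was also lost under upper-quartile factors (adjusted p = 0.0622). Leaving out DMSO replicate 1 gave 6 lower genes, and leaving out either DMSO replicate 2 or RB-1 replicate 1 gave 8.

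In the origin recognition complex 1 of 6 genes was called, ORC3, at 10.4 and 13.1 CPM in RB-1, against 54.1 and 52.2 CPM in DMSO (log2 fold change -2.18 ± 0.29, adjusted p = 0.000901). Both RB-1 libraries were far below both DMSO libraries. ORC5, the gene with the next smallest p, had a log2 fold change of 0.65 ± 0.29 (adjusted p = 0.114).

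None of the 4 GINS genes, whose products join CDC45 on the ring, passed in the fit with TMM scaling. GINS1 was at 79.9 and 55.0 CPM in RB-1, against 39.9 and 42.7 CPM in DMSO (0.71 ± 0.29, adjusted p = 0.0862). GINS4 was at 17.0 and 15.5 CPM in RB-1, against 48.0 and 21.0 CPM in DMSO, so its value rested largely on DMSO replicate 1 (-1.09 ± 0.39, adjusted p = 0.0588; -0.37 without that library). GINS4 was close to the threshold and was called lower in 5 of the 13 alternatives, among them DESeq2 (adjusted p = 0.0219), the replicate block (adjusted p = 0.0408) and the fit without DMSO replicate 2 (-1.54, adjusted p = 0.0364). It is uncertain, since 21.2% of its exon bases lie opposite an antisense gene without a row in the table.

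The regulators of loading had 2 of 9 genes lower. DTL, the substrate receptor that directs CDT1 to destruction during S phase, was at 41.2 and 57.3 CPM in RB-1, against 105 and 121 CPM in DMSO (-1.20 ± 0.27, adjusted p = 0.00953). CCNE2, cyclin E2, was at 13.7 and 24.7 CPM in RB-1, against 65.6 and 60.1 CPM in DMSO (-1.71 ± 0.33, adjusted p = 0.00498), and is uncertain because 37.0% of its exon bases lie opposite INTS8. GMNN, the inhibitor that binds CDT1 after origins have fired, is named outside the rule for its role: it was at 27.0 and 29.7 CPM in RB-1, against 51.9 and 45.5 CPM in DMSO, and narrowly missed the threshold (-0.78 ± 0.27, adjusted p = 0.0539; 0.0215 by DESeq2). Leaving out DMSO replicate 2 or RB-1 replicate 1 ended the call on DTL (adjusted p = 0.101 and 0.0514).

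The firing kinase and factors had 5 of 9 genes lower. TOPBP1, a scaffold that brings firing factors to origins, was at 18.4 and 26.6 CPM in RB-1, against 153 and 118 CPM in DMSO (-2.59 ± 0.30, adjusted p = 0.000429). WDHD1, which couples the helicase to the primase polymerase, was at 16.6 and 19.8 CPM in RB-1, against 109 and 72.0 CPM in DMSO (-2.32 ± 0.31, adjusted p = 0.000863). In both genes the RB-1 libraries lay well below the DMSO libraries. The kinase gene CDC7 (-1.11 ± 0.31, adjusted p = 0.0217), the gene of its activating subunit DBF4 (-1.56 ± 0.34, adjusted p = 0.00826) and TICRR, which encodes treslin (-1.04 ± 0.29, adjusted p = 0.0226), were also lower. CDC7 and TICRR were called in none of the fits without RB-1 replicate 1, DMSO replicate 1 or DMSO replicate 2, where their adjusted p ran from 0.0839 to 0.199, and DBF4 was lost without DMSO replicate 1 (adjusted p = 0.0589).

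Fork protection genes gave 2 of 3 lower: CLSPN, the checkpoint adaptor claspin, at 10.5 and 13.5 CPM in RB-1, against 82.4 and 101 CPM in DMSO (-2.94 ± 0.30, adjusted p = 0.000285), and TIPIN, which steadies moving forks (-1.30 ± 0.29, adjusted p = 0.00940). TIPIN was lost without either DMSO library (adjusted p = 0.0790 without replicate 1 and 0.0619 without replicate 2) and is uncertain, since 21.0% of its exon bases are shared with a pseudogene on the same strand, RPL9P25, which has no row in the table. MCM8, a relative of the ring subunits that acts in recombination repair, was lower (-1.49 ± 0.33, adjusted p = 0.00947; 0.0585 without DMSO replicate 1), while its partner MCM9 did not pass (-0.83 ± 0.30, adjusted p = 0.0618). Among the genes of ring unloading CUL2, a cullin scaffold, was lower (-0.94 ± 0.30, adjusted p = 0.0400) but not without RB-1 replicate 1, DMSO replicate 1 or DMSO replicate 2, where the adjusted p ran from 0.122 to 0.248. LRR1 did not pass (-0.47 ± 0.34, adjusted p = 0.318; 0.025 without DMSO replicate 1) and shares 19.8% of its exon bases with RPS29 on the opposite strand.

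**Figure D4:**
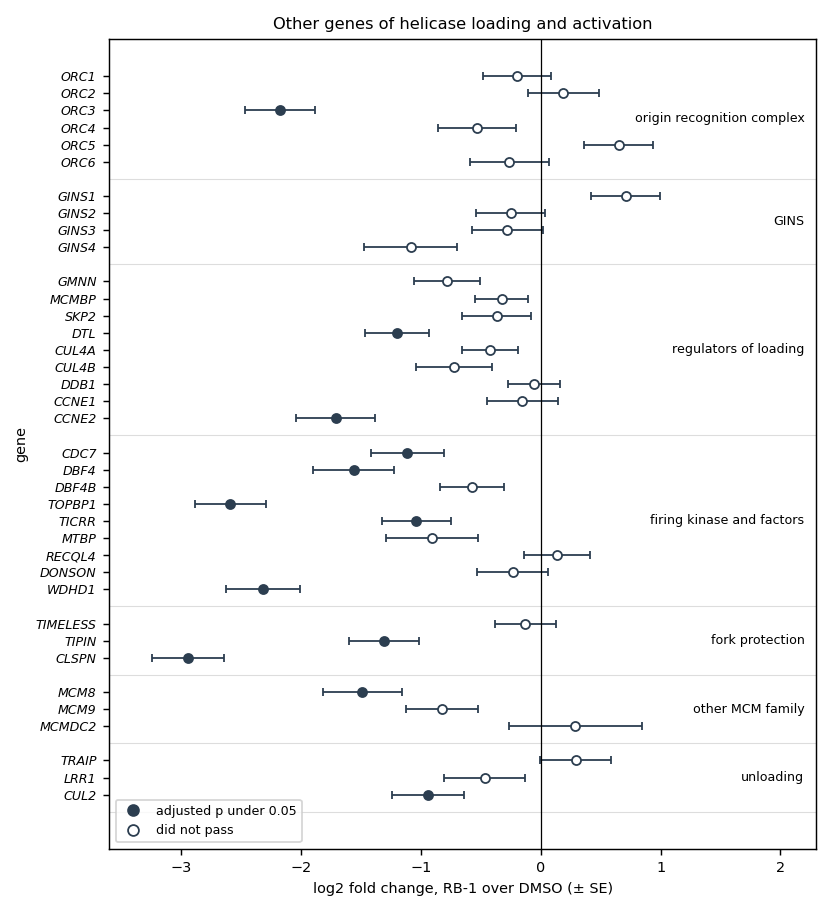
Log2 fold change of RB-1 over DMSO ± SE (horizontal axis) for the 37 other genes of helicase loading and activation, grouped by role; filled points have an adjusted p under 0.05. The 12 filled points all lie left of 0, with CLSPN at -2.94 farthest out, and GINS1 and ORC5 are the highest at 0.71 and 0.65.

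GC content and length of the transcripts moved with these results. Over tested genes the log2 fold change had a Spearman correlation of 0.300 with GC content and -0.370 with transcript length (13596 genes, which share libraries and are not independent replicates). Over the 10 described genes its correlation with GC content was 0.794. The difference between RB-1 replicate 1 and RB-1 replicate 2 had correlations of 0.503 with GC content and -0.423 with length. Between DMSO replicate 1 and DMSO replicate 2 these had the opposite signs, at -0.311 with GC content and 0.105 with length. The 3 genes that fell have the least GC of the 10 transcripts, at 43.1% in MCM6, 45.5% in CDC6 and 47.2% in MCM10, while the other 7 ran from 48.5% in MCM4 to 64.9% in CDT1. When tested genes were cut into 10 equal bins by GC content, 26.6% of the genes in the bin were lower around MCM6, 21.2% around CDC6 and 16.3% around MCM10, against 3.75% around CDT1. In 10 bins by transcript length these shares were 16.7% around MCM6, 20.7% around CDC6 and 15.1% in the bin that MCM10 and CDT1 share.

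Within its bin, MCM10 was lower than all but 2.80% of the genes, CDC6 than all but 13.2% and MCM6 than all but 26.4%. With offsets from a smooth of each library on length and GC content, MCM10 was at -2.14 ± 0.26 (adjusted p = 0.00172), CDC6 at -0.95 ± 0.20 (adjusted p = 0.0103) and MCM6 at -0.66 ± 0.18 (adjusted p = 0.0262), so all 3 were still called. In that fit MCM7 was at 0.13 ± 0.19 and MCM5 at -0.48 ± 0.18, neither called. The 12 listed pathway genes called lower had a median GC content of 40.7%, against 46.1% in the 25 that did not pass. With the offsets 14 of the 37 were lower and 3 higher, beside 2148 lower and 2215 higher of all 13612 tested genes. The higher ones of the 37 included ORC5 (0.78, adjusted p = 0.0416) and GINS1 (1.11, adjusted p = 0.0245). CUL2 was no longer called (-0.48, adjusted p = 0.0888), and the other 11 genes were still called with smaller fold changes, among them MCM8 (-0.80), WDHD1 (-1.67), TOPBP1 (-2.03) and DTL (-0.75). What length and GC content contribute beyond these values was not tested.

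**Figure D5:**
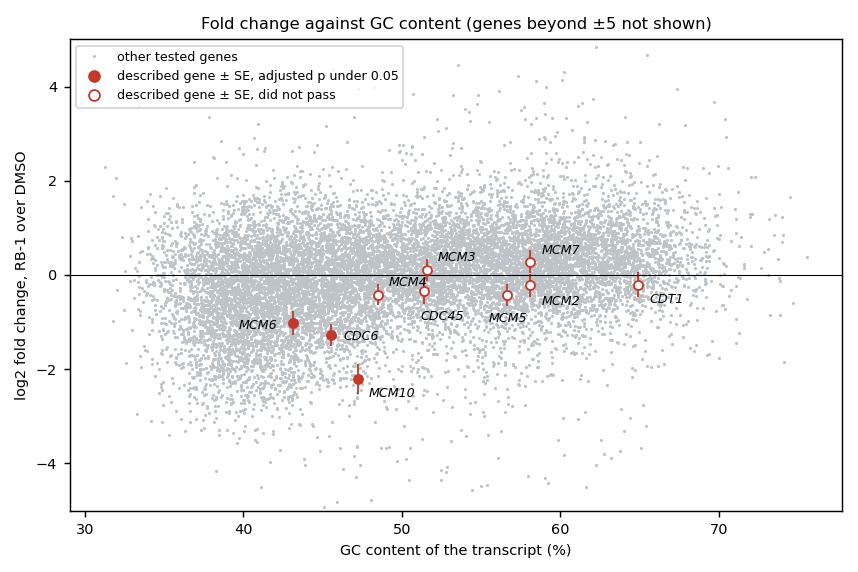
Log2 fold change of RB-1 over DMSO (vertical axis) against GC content of the transcript in percent (horizontal axis) for tested genes, with the 10 described genes ± SE marked and filled where the adjusted p is under 0.05. The filled points MCM6, CDC6 and MCM10 lie at 43.1%, 45.5% and 47.2% GC, left of the other 7.

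The mean profile of the 6 subunits over the 4 libraries was compared with 11450 other genes of at least 100 counts on average, by the Euclidean distance of log2 CPM centred on each gene. The nearest were MTA2 (distance 0.033), APEX2 (0.036), UPF1 (0.038), FHOD1 (0.038) and KIF1C (0.056). With 4 libraries and a profile this flat, such nearness is a description of these libraries.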

How the data were processed

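RNA of 2 RB-1 and 2 DMSO libraries was prepared with an mRNA library kit, per the labels' protocols. The authors deposited raw counts per gene, 1 column per library; no source used here gives the aligner, the counter or whether strand was used. The builds in the submitters' processing notes are of the mouse while all gene IDs are human, so no coordinates were taken from them. Symbols matched 20148 of 20263 IDs; transcript length and GC content came from the principal transcript in GENCODE release 29, promoter windows from RefSeq.

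Genes were kept by filterByExpr (edgeR 4.0.16, R 4.3.3), scaled by TMM and compared by estimateDisp, robust glmQLFit and glmQLFTest, with 2 residual degrees of freedom per gene before sharing. CPM were computed from the deposited counts and TMM library sizes. The SE is the log2 fold change divided by the square root of F. The fit was tested on simulated counts, where it recovered 23% of the genes changed 2-fold and 92% of those changed 4-fold. A gene that did not pass may therefore have changed by 2-fold or less and, more rarely, by more than that. Replicates differed far beyond sampling noise (chi-square per degree of freedom 128 in RB-1 and 257 in DMSO), so none were merged. Alternatives were other scalings and filters, DESeq2 1.42.0, limma-voom (limma 3.58.1), a replicate block, length and GC offsets (mgcv 1.9.3) and each library left out.

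The genes, lists and tests were chosen with earlier results of these data known. Named pathway genes were those called and the 2 with the smallest p per list.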

Additional observations from a re-analysis of the deposited data

How the results depend on the processing

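MCM10 kept its direction and its call in all 13 alternatives (log2 fold change from -2.61 to -1.88), CDC6 in 12 and MCM6 in 9. Leaving out 1 library at a time gave -1.34 to -1.18 for CDC6, -1.15 to -0.86 for MCM6, -0.50 to 0.016 for MCM2, -0.10 to 0.29 for MCM3 and -0.81 to 0.025 for LRR1; 1 to 3 of the 10 genes lower; 6 to 15 of the 37 pathway genes lower and 0 to 1 higher; and, over all tested genes, 383 to 1934 higher and 1091 to 2413 lower, against 1702 and 2149. With 3 libraries the lone sample of a group is assumed to vary like the others; over all tested genes the counts in both directions were above those of all 4 libraries without RB-1 replicate 2, and below them without any other library. Higher and lower genes numbered 2134 and 1815 under upper-quartile factors, which moved the median log2 fold change by 0.10, and 2015 and 1381 under library totals alone, which moved it by 0.20. The mean sum of MCM2 to MCM7 was 1238 CPM in RB-1 and 1278 CPM in DMSO under upper-quartile factors, and 1278 CPM in RB-1 and 1241 CPM in DMSO under library totals alone. Library totals alone took MCM6 to -0.84 (adjusted p = 0.0554). With length and GC offsets CDC45 passed (-0.60, adjusted p = 0.0411). In that fit 3 of the 37 pathway genes were higher, beside 2215 of all 13612 tested genes. The cause was not tested. Replicate numbers are shared between groups but are not known to pair the libraries (correlation of replicate differences -0.096 over tested genes); with the replicate block 1721 genes were higher and 2289 lower, 3 of the 10 and 13 of the 37 lower. DESeq2 had 15 of the 37 lower, beside 2362 of all 13612 tested genes. With 2 libraries per group, a gene that did not pass may still have changed.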
